A study of Mus musculus with 6 samples.

Results

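The immunoglobulin constant genes Ighm, Ighd, Ighg1, Ighg2b, Ighg2c, Ighg3, Igha, Ighe and Igkc, together with Jchain, were followed through single liver cells of 6 mice. These 10 genes were taken as a fixed list out of the 16623 genes of the table. Plasma cells were found by their own RNA, as cells with at least 1 molecule of Jchain, at least 1 of Mzb1, and at least 1 of Derl3 or Eaf2, which gave 342 of the 11610 cells. The plasma cells were thus chosen by their UMIs of Jchain, Mzb1, Derl3 and Eaf2, and the levels of these genes there are given as a description. The other 9 listed genes played no part in that choice. Within each plasma cell, the heavy chain constant gene with the most molecules was taken as its dominant isotype, so the heavy chain genes are likewise a description wherever cells are compared by isotype.

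Livers of 3 wild-type mice and 3 SIRT7-/- mice, which lack the sirtuin SIRT7, were digested by collagenase perfusion, and each mouse gave 1 library on the 10x Genomics Chromium platform with a 3′ kit. All mice were 5 to 6 months old, and the study describes SIRT7-/- mice as developing fatty liver disease on chow. For each library, 3000 hepatocytes and 3000 nonparenchymal cells were mixed, so the share of any cell type depends on that mixing as well as on the liver. The deletion is carried by every cell of the SIRT7-/- mice, and neither the sex nor the strain of these 6 mice is named in the sources used here.

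A B cell first makes its antibody with the μ and δ heavy chains, encoded by Ighm and Ighd, which share a variable region. Class switching then joins the same variable region to a downstream constant gene, giving IgG, IgE or IgA, and removes the constant genes in between from that chromosome. Plasma cells are the end stage of this lineage and devote much of their RNA to secreted antibody. Jchain encodes the joining chain that links IgM and IgA into polymers, the forms that the polymeric immunoglobulin receptor carries across epithelia. In the liver, plasma cells lie among the nonparenchymal cells, and IgA is known to pass from blood to bile.

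In the mouse genome build GRCm38 (mm10), the 8 heavy chain constant genes lie on the minus strand of chromosome 12. In the order of transcription these are Ighm (chr12:113418558-113422730), Ighd (chr12:113406604-113416324), Ighg3 (chr12:113356224-113361232), Ighg1 (chr12:113325240-113330523), Ighg2b (chr12:113302965-113307933), Ighg2c (chr12:113285325-113288932), Ighe (chr12:113269260-113273248) and Igha (chr12:113254830-113260236). Igkc, the only κ light chain constant gene, lies on chromosome 6 (chr6:70726435-70726966), and Jchain lies on chromosome 5 (chr5:88519809-88527891).

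Levels are given as CP10K, the unique molecular identifiers (UMIs, counted RNA molecules) of a gene per 10000 UMIs of a cell. A 3′ library counts a molecule once whatever its length, so levels of different genes are set side by side here per molecule. Between 2511947 and 11069411 UMIs were counted per mouse. The plasma cells had medians of 3174 to 13191 UMIs per cell and held 2.66% to 18.7% of the UMIs of a mouse. Sirt7 itself had 231, 137 and 131 UMIs in wild-type mice 1 to 3 and 100, 49 and 43 UMIs in SIRT7-/- mice 1 to 3, which is 74.3, 54.5 and 48 against 9.03, 8.08 and 16.7 UMIs per 1000000 and left no overlap. The 3′ counts do not show which part of Sirt7 they come from. Of the 11597 barcodes, 13 occurred in more than 1 mouse, in 26 cells, of which 0 were plasma cells.

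The listed genes were found almost entirely in plasma cells. Of 799600 Igkc UMIs, 81.0% lay in the 342 plasma cells, and a further 17.5% lay in 125 cells that clustered with plasma cells but did not meet the rule. The corresponding shares were 77.6% and 19.1% of 60720 UMIs for Ighm, and 81.9% and 16.8% of 201912 UMIs for Igha. Ighd was the exception. Of its 261 UMIs only 3.83% lay in plasma cells, while 38.3% lay in B-like cells and 42.9% in cells outside the B-like, plasmacytoid dendritic (pDC)-like and plasma-like clusters.

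The label plasma cell was checked against markers that the rule did not use. Xbp1, the transcription factor of the secretory programme, had a UMI in 92.4% of the 342 cells and in 26.5% of the cells elsewhere, at 9.04 against 1.48 CP10K. Tnfrsf17, the survival receptor BCMA, had one in 50% against 0.175% (2.36 against 0.00672 CP10K), and Sdc1 (syndecan 1) in 40.6% against 9.68% (1.25 against 0.600 CP10K). The shares depend on depth, which differed between these cells. B cell markers were uneven in them, with Cd79a in 88.3% of cells, Ms4a1 in 16.7% and Pax5 in 1.46%. When all cells were clustered without immunoglobulin genes and Jchain, 317 of the 342 (92.7%) fell into plasma-like clusters. The other 25 comprised 7 B-like, 6 neutrophil-like, 5 endothelial-like, 3 pDC-like, 2 hepatocyte-like, 1 T-like and 1 macrophage-like cell. In 30 of the 342 the pDC markers Siglech, Ccr9, Klk1 or Cox6a2 had a UMI, in 7 of them Siglech. Settings without cells with a pDC marker UMI refer to these genes. Of the other pDC markers, Bst2, Tcf4 and Irf8 had a UMI in 68.4%, 62.6% and 18.4% of the 342. In the cells elsewhere these shares were 45.7%, 17.1% and 24.7%. Pacsin1, Cd300c and Smim5 had one in at most 1.46% of the 342.

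The edge of the rule was set by Derl3 and Eaf2, which are weakly expressed. Another 102 cells had Jchain and Mzb1 but neither of these genes, and their median Igkc level was 3622 CP10K against 3439 in the plasma cells by the rule. Their median Jchain level was 420 CP10K against 446. Of the 99 with a dominant isotype, 64 had Igha, 18 Ighm and 17 an Ighg gene. Among the 342 cells none had a single Jchain UMI, and 10 had a single Mzb1 UMI.

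All 342 plasma cells had a dominant heavy chain gene, with no ties. Igha led in 234 cells (68.4%, exact 95% binomial interval 63.2 to 73.3), Ighm in 45 (13.2%, 9.76 to 17.2), Ighg2c in 22, Ighg1 in 20, Ighg2b in 15, and Ighg3 and Ighe in 3 each. The 4 Ighg genes together led in 60 cells (17.5%). Ighd led in 0 of 342 cells, for which the interval allows up to 1.07%. These intervals cover counting error only. Most cells expressed 1 heavy chain gene and almost nothing of the others. The dominant gene held a median of 100% of the heavy chain UMIs in Ighm cells, 99.9% in Igha cells and 100% in Ighg1 cells, and at least 95% in 45 of 45, 222 of 234 and 20 of 20 of them. The level of the dominant gene was similar for Ighm and Igha, with medians of 1517 and 1439 CP10K over their own cells. It was 1065 CP10K for Ighg1, 1205 for Ighg2b and 592 for Ighg2c.

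The share of IgA plasma cells differed between the genotypes without overlap. Of the plasma cells of wild-type mice 1 to 3, 7 of 12 (58.3%), 5 of 18 (27.8%) and 49 of 100 (49%) were led by Igha. In SIRT7-/- mice 1 to 3 these were 65 of 87 (74.7%), 98 of 111 (88.3%) and 10 of 14 (71.4%). Every SIRT7-/- mouse lay above every wild-type mouse, with means of 45% ± 15.7 (SD, n = 3) and 78.1% ± 8.94 (SD, n = 3). The difference of 33.1 percentage points had a two-sided exact permutation p of 0.1, the smallest that 3 mice against 3 can give, so no threshold of 0.05 could be passed. With few cells the share of a mouse is wide. The exact 95% interval ran from 27.7 to 84.8% in wild-type mouse 1 and from 41.9 to 91.6% in SIRT7-/- mouse 3, against 80.8 to 93.6% in SIRT7-/- mouse 2.

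The share of IgM plasma cells was lower in SIRT7-/- mice by about as much. Ighm led in 3, 9 and 29 cells of wild-type mice 1 to 3, or 25%, 50% and 29%. In the SIRT7-/- mice it led in 4 of 87 cells (4.60%) of mouse 1 and in 0 of 111 and 0 of 14 cells of mice 2 and 3. A count of 0 allows up to 3.27% in SIRT7-/- mouse 2 and up to 23.2% in mouse 3 by the exact interval. The means were 34.7% ± 13.4 and 1.53% ± 2.65 (SD, n = 3 each), and the two-sided exact permutation p was again 0.1. Summed UMIs in place of calls per cell gave Ighm shares of 17.6%, 47.7% and 32.7% of heavy chain RNA in wild-type mice and 5.65%, 0.589% and 0.248% in SIRT7-/- mice. When the 125 plasma-like cells outside the rule were added, Ighm led in 25%, 52.6% and 33.8% against 8.70%, 5.67% and 0%. That setting was added after the data were seen, and it brought 8 Ighm cells each to SIRT7-/- mice 1 and 2.

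**Figure D1:**
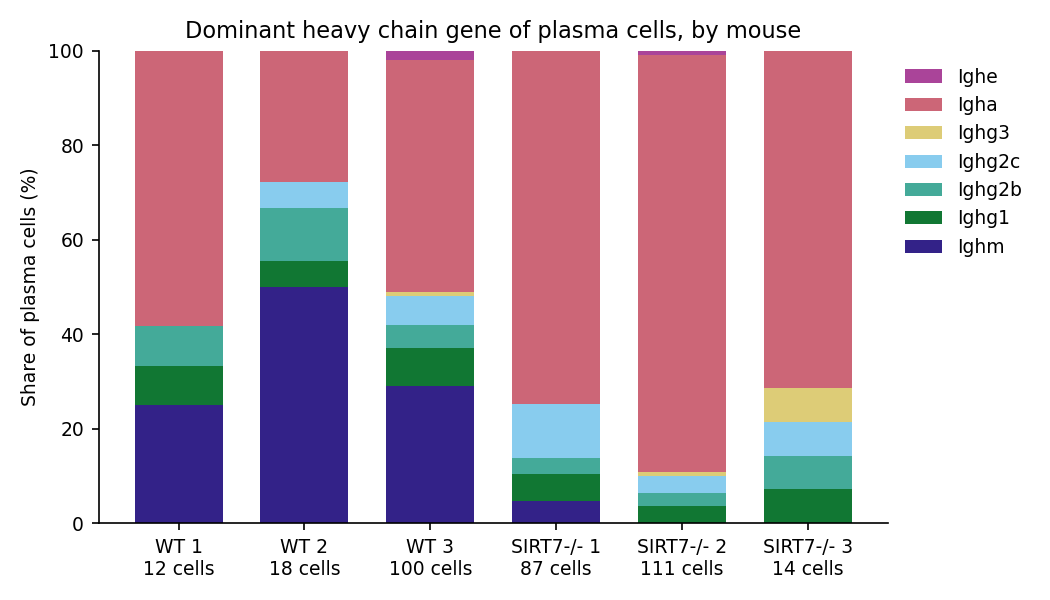
Dominant heavy chain gene of the plasma cells of each mouse. The bars stack the percentage of plasma cells led by each gene, with the number of plasma cells of the mouse given at each bar. The Igha part spans 27.8 to 58.3% in wild-type and 71.4 to 88.3% in SIRT7-/- mice, and the Ighm part 25 to 50% and 0 to 4.60%.

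The shares of IgG plasma cells overlapped between the genotypes. The Ighg genes together led in 16.7%, 22.2% and 20% of plasma cells of the wild-type mice and in 20.7%, 10.8% and 28.6% of those of the SIRT7-/- mice. The means were 19.6% ± 2.80 and 20% ± 8.90 (SD, n = 3 each; exact permutation p = 0.9, two-sided), and the sign of this difference changed with the mice entered. Plasma cells as a whole made up 0.965%, 1.93% and 9.14% of the cells of the wild-type mice and 1.55%, 5.09% and 2.54% of those of the SIRT7-/- mice (p = 0.9 in the same exact test). Among cells outside the hepatocyte-like clusters and cluster 1, a cluster led by hemoglobin and hepatocyte transcripts, these shares were 2.71%, 4.29% and 10.1% against 1.82%, 5.87% and 6.45%. Wild-type mouse 3 held 100 of the 130 wild-type plasma cells, and without it the mean share of plasma cells was higher in the SIRT7-/- mice by 1.61 points.

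The mean level over all plasma cells of a mouse was then compared gene by gene. Of 7377 genes tested with limma (Benjamini-Hochberg adjustment), 4 were called at an adjusted p under 0.05 (0.0542%), and 0 of the 9 listed genes tested were among them. At an unadjusted p under 0.05 there were 321 genes, which include Ighm and Ighg2b. The mice of the genotypes did not overlap for 8.57% of all genes, and for 3.16% with the lower level in SIRT7-/- mice. Among the listed genes the latter held for Ighm and Ighg2b.

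Ighm, the IgM heavy chain, had plasma cell means of 286, 716 and 446 CP10K in wild-type mice and 57.3, 8.90 and 6.73 CP10K in SIRT7-/- mice. The lowest wild-type mouse was thus several fold above the highest SIRT7-/- mouse. The log2 difference was -4.89 (SE 1.01) with an unadjusted p of 0.00723 and an adjusted p of 0.889 in limma. Ighm would pass the threshold with the mean of the deposited log values, at -2.81 and an adjusted p of 0.0133. Without SIRT7-/- mouse 1 it was also called, at -5.85. Even the mice with no Ighm-led cell held some Ighm RNA. In SIRT7-/- mouse 2, 38 of 98 Igha-led cells carried Ighm UMIs, 404 in all and at most 34 in a cell. That share was 8 of 65 in SIRT7-/- mouse 1, 1 of 10 in SIRT7-/- mouse 3 (50 UMIs in that cell), 7 of 49 in wild-type mouse 3 and 0 of 12 in wild-type mice 1 and 2 together. Conversely, Igha UMIs were found in 2 of the 29 Ighm-led cells of wild-type mouse 3 and in none of the 16 of the other mice.

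Igha, the IgA heavy chain, had plasma cell means of 1150, 411 and 806 CP10K in wild-type mice and 828, 1296 and 1298 CP10K in SIRT7-/- mice. The mean levels overlapped between the genotypes even though the shares of cells did not. The means were 789 ± 370 and 1141 ± 271 CP10K (SD, n = 3 each), and the log2 difference was 0.62 (SE 0.46, adjusted p = 0.998, limma). Within cells led by Igha, the medians of its level were 1776, 1660 and 1678 CP10K in wild-type mice and 1049, 1437 and 1591 CP10K in SIRT7-/- mice. An Igha-led cell thus held somewhat less Igha in each SIRT7-/- mouse than in each wild-type mouse, which is given as a description because Igha chose these cells.

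**Figure D2:**
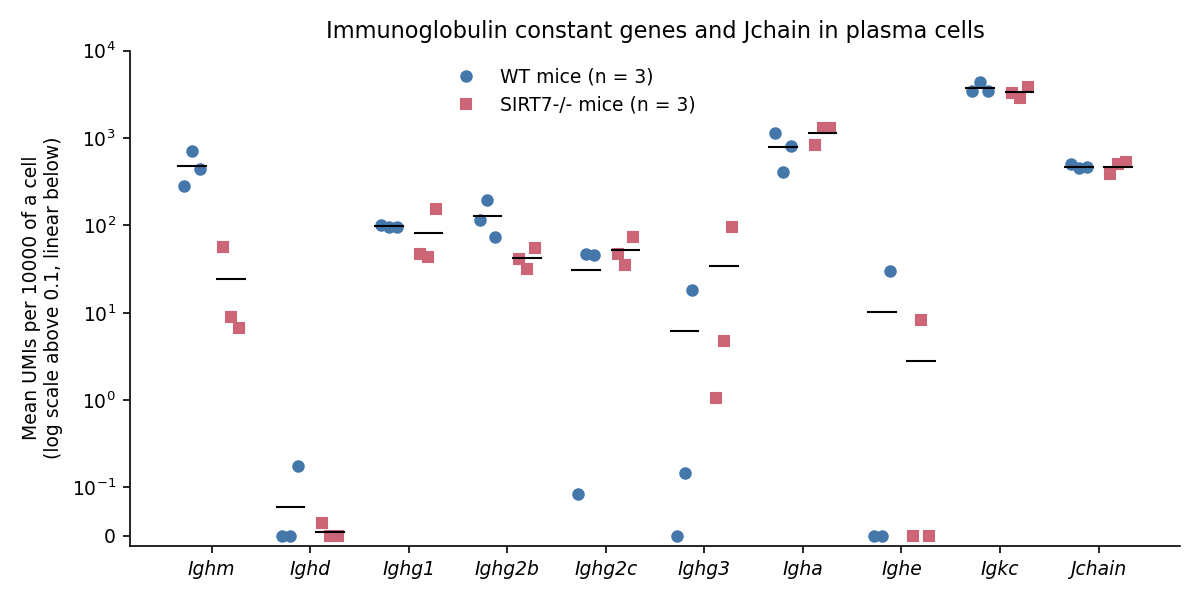
Mean level of each listed gene over the plasma cells of a mouse, in UMIs per 10000 (log scale above 0.1, linear below). Points are mice, 3 wild-type (circles) and 3 SIRT7-/- (squares), and lines are group means. For Ighm and Ighg2b all squares lie below all circles, while Igkc and Jchain overlap.

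The Ighg genes encode the γ heavy chains of IgG and are close relatives, so their sequences bear on how well they can be told apart. The longest run of identical bases was 78 between the Ighg2b and Ighg2c transcripts, against 41 or fewer for the other pairs of Ighg genes. It starts at base 565 of 1114 in the Ighg2b transcript and at base 562 of 1111 in the Ighg2c transcript. The 102 coding bases around that run are shown for all 4 genes (GRCm38, minus strand, 5′ to 3′, each within 1 exon). Capitals mark the 78-base run in Ighg2b and Ighg2c, and in Ighg1 and Ighg3 the bases that match Ighg2c at those positions, 62 and 76 of 78.
Ighg2b (chr12:113306857-113306958): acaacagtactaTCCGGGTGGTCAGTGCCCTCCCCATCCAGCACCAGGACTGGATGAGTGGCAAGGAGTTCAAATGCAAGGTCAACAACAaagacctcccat
Ighg2c (chr12:113287857-113287958): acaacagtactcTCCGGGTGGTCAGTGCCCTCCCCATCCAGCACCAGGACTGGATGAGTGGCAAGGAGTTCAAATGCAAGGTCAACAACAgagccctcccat
Ighg1 (chr12:113329453-113329554): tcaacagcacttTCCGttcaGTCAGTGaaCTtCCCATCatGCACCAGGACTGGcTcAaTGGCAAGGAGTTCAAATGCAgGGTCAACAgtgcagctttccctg
Ighg3 (chr12:113360133-113360234): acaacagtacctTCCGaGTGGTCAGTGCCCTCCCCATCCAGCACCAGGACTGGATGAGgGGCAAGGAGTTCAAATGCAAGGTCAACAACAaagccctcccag

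Ighg2b and Ighg2c were counted in the same cells, but not symmetrically. All 19 Ighg2c-led cells with at least 100 Ighg2c UMIs also held Ighg2b UMIs, at 5.67 to 15.2% of the Ighg2c count with a median of 10.6%. Ighg3 UMIs were in 7 of these 19 cells, with a median of 0. Of the 15 Ighg2b-led cells, 7 held Ighg2c UMIs, with a median of 0. In Igha-led cells with at least 100 Igha UMIs, Ighg2b appeared in 28 of 223. The share of the dominant gene was correspondingly lower in Ighg2c-led cells, with a median of 88.8%, and in 0 of 22 did it reach 95%. The positions of the reads are not part of the table, so whether the Ighg2b UMIs of Ighg2c-led cells fell on the shared run was not tested. The Ighg2b level in a mouse with Ighg2c-led cells is uncertain to that extent.

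**Figure D3:**
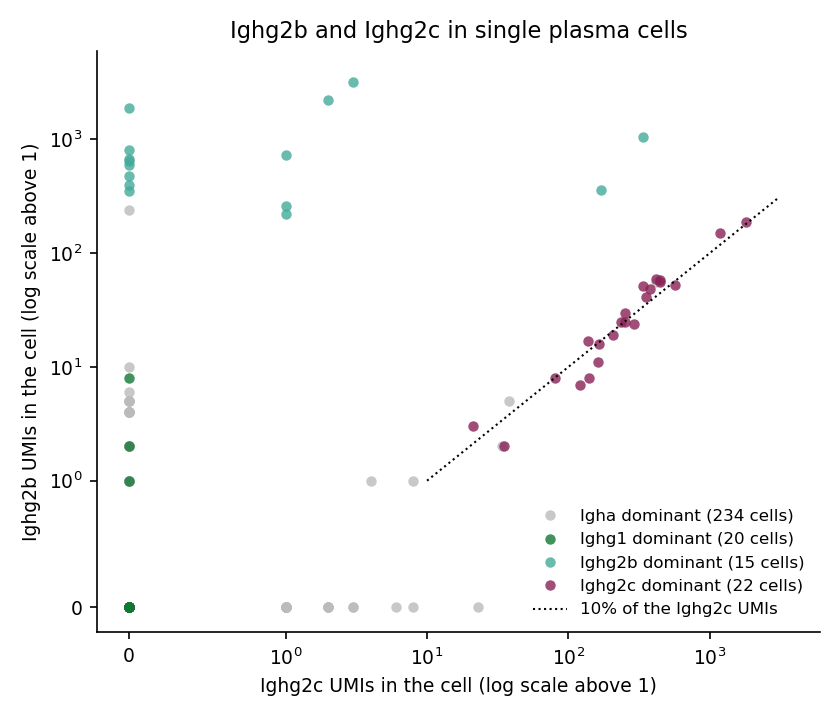
Ighg2b against Ighg2c UMIs in single plasma cells, coloured by the dominant heavy chain gene (log scale above 1). The dotted line is 10% of the Ighg2c count. Cells led by Ighg2c lie along that line, with a median of 10.6% in the 19 cells with at least 100 UMIs, while most Ighg2b-led cells lie at or near 0 Ighg2c UMIs.

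Ighg2b had plasma cell means of 114, 195 and 73.6 CP10K in wild-type mice and 41.4, 32.0 and 54.9 CP10K in SIRT7-/- mice. The mice did not overlap, although only 8 wild-type and 7 SIRT7-/- cells were led by Ighg2b. The log2 difference was -1.50 (SE 0.30) with an unadjusted p of 9.43e-05 and an adjusted p of 0.139 in limma. It passed the threshold under 6 of the 20 alternatives tried, with an adjusted p of 0.0013 at a pseudocount of 0.5 and of 0.0231 without SIRT7-/- mouse 2. Ighg2c had means of 0.0858, 47.4 and 45.8 CP10K against 47.0, 35.0 and 73.7 CP10K, and wild-type mouse 1, with 0 Ighg2c-led cells of 12, stood apart from the other 5 mice. Its log2 difference was 2.90 (SE 2.74, adjusted p = 0.998, limma).

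Ighg1 and Ighg3 rested on very few cells. Ighg1 had means of 102, 97.1 and 95.7 CP10K in wild-type and 46.8, 43.2 and 155 CP10K in SIRT7-/- mice (log2 difference -0.53, SE 0.54, adjusted p = 0.998, limma). In wild-type mice 1 and 2 and in SIRT7-/- mouse 3, every one of the 1733, 2800 and 3312 Ighg1 UMIs came from 1 cell. Without SIRT7-/- mouse 3 Ighg1 was called, at -1.12. Ighg3 had means of 0, 0.145 and 18.2 against 1.07, 4.78 and 96.4 CP10K, and 1210 of the 1213 UMIs of SIRT7-/- mouse 3 and 1027 of the 1065 of wild-type mouse 3 came from 1 cell each. Its log2 difference was 3.84 (SE 3.10, adjusted p = 0.998, limma).

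Ighe, the IgE heavy chain, was counted in 5 of the 11610 cells and led in 3 of them, 2 in wild-type mouse 3 and 1 in SIRT7-/- mouse 2. The 3 cells held 497, 596 and 204 Ighe UMIs, or 926 to 1905 CP10K, as much as the dominant gene of other isotypes. Of all 1299 Ighe UMIs, 99.9% lay in plasma cells, and 1 lay outside the plasma-like, B-like and pDC-like cells. Ighd, the IgD heavy chain, had 10 UMIs in plasma cells, 9 of them in wild-type mouse 3, and did not reach the minimum of the test.

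Igkc encodes the constant region of the κ light chain and was the most abundant of the listed genes. Its plasma cell means were 3489, 4398 and 3428 CP10K in wild-type and 3316, 2845 and 3861 CP10K in SIRT7-/- mice, and the mice of the genotypes overlapped. The log2 difference was -0.18 (SE 0.15, adjusted p = 0.998, limma), and within Igha-led cells alone it was -0.05 (SE 0.10). The λ constant genes Iglc1, Iglc2, Iglc3 and Iglc4 held 21179 light chain UMIs against 647501 of Igkc. In most cells κ held almost all light chain UMIs, with a median share of 99%. In 7 of 342 cells λ outnumbered κ (2.05%, exact 95% interval 0.827 to 4.17), 3 in wild-type and 4 in SIRT7-/- mice. Of these 7 cells, 5 were led by Igha, 1 by Ighe and 1 by Ighg1, with 0 of the 45 Ighm-led cells among them. The ratio of Igkc to heavy chain UMIs had a median of 2.40, and it was 2.66 in Ighm-led, 2.10 in Igha-led and 6.09 in Ighg2c-led cells.

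Jchain, which helped to choose the cells, had plasma cell means of 501, 450 and 462 CP10K in wild-type and 389, 500 and 526 CP10K in SIRT7-/- mice, or 471 ± 27.0 and 472 ± 72.6 (SD, n = 3 each). Medians were 392 CP10K in Ighm-led, 488 in Igha-led, 250 in Ighg1-led, 398 in Ighg2b-led, 413 in Ighg2c-led and 522 in Ighe-led cells. As every cell had to hold Jchain to be counted, cells of any isotype without it are not in these medians. Of the other genes of the rule, Mzb1 averaged 34.0 ± 6.67 and 35.2 ± 5.37 CP10K and Derl3 4.08 ± 0.326 and 4.53 ± 0.760 CP10K in wild-type and SIRT7-/- mice. Eaf2, an elongation factor partner, had means of 1.78, 1.08 and 1.92 CP10K in wild-type and 2.96, 2.75 and 2.66 CP10K in SIRT7-/- mice, so this gene of the rule did not overlap between the genotypes, and its part in the results was not tested.

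The immunoglobulin genes together took a median of 55.6% of the UMIs of a plasma cell. This median was 60.8%, 68.7% and 59.5% in wild-type and 52.3%, 51.4% and 63.1% in SIRT7-/- mice, and the mice overlapped. By isotype it was 63.2% in Ighm-led, 53.9% in Igha-led and 56.9% in IgG cells. Because these genes fill so much of a cell, each cell was also scaled over the other genes alone. That moved the median log2 difference over all genes from 0.11 to -0.03 and the number of calls from 4 to 42, with 7 higher and 35 lower against 1 and 3.

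The 4 called genes were not antibody genes. Sult2a1 (1.42, 2.97 and 1.49 CP10K against 0.418, 0.232 and 0.109), Car3 and Akr1c6, abundant enzymes of hepatocytes, were lower in the plasma cells of SIRT7-/- mice, at log2 differences of -2.78, -2.50 and -2.04 (adjusted p of 0.000181, 0.0170 and 0.0336, limma). BC018473 was higher at 3.06. It falls outside the rule for named genes and was chosen after its values were seen. The 8 hepatocyte markers summed to 44, 32.6 and 27.0 CP10K in the plasma cells of wild-type mice and to 37.4, 9.33 and 40.5 CP10K in those of SIRT7-/- mice, and all 8 had UMIs in every mouse. The 7 neutrophil markers summed to at most 0.215 CP10K in 4 mice and to 79.4 and 16.6 CP10K in SIRT7-/- mice 1 and 2. The part of these cells in the results was not tested.

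In lists of antibody-making genes no gene was called, where only 0.0542% of all genes were. Of the plasma cell programme 15 of 16 genes were tested and 0 called, with a median log2 difference of -0.03 against 0.11 over all genes. Xbp1 stood at 9.33, 9.42 and 10.5 CP10K in wild-type and at 6.54, 9.44 and 9.99 CP10K in SIRT7-/- mice. Of 20 genes of protein secretion through the endoplasmic reticulum 0 were called (median -0.01). The same held for 12 homing genes (0.33), 8 of 14 B cell genes (-0.10), 6 of 11 class switch genes (0.18), 7 of 16 immunoglobulin receptor genes (-0.37) and 2 of 10 survival and switch factors (-0.00). Among the homing genes Itga4, an integrin subunit, had means of 0.737, 0.830 and 1.64 against 1.99, 2.22 and 1.56 CP10K (log2 difference 0.89, SE 0.37, adjusted p = 0.998, limma).

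IgA and IgM plasma cells were next compared with each other within mice. Wild-type mouse 3, with 29 Ighm-led and 49 Igha-led cells, was the only mouse with at least 10 of each, so its values carry no test. There 591 of 7595 genes (7.78%) differed at least 4-fold. A limma fit was possible with wild-type mouse 2 added (9 and 5 cells), an alternative with at least 5 cells of each. Both mice are wild-type, and with 4 means and 1 residual degree of freedom its p-values rest on the spread shared among genes. It called 44 of 7226 genes (0.609%), 32 higher and 12 lower in Igha-led cells. Wild-type mouse 1 (3 and 7 cells) and SIRT7-/- mouse 1 (4 and 65 cells) were not used in that fit and give values of their own.

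Crip1, a small LIM domain protein, had the largest of these differences in absolute level after Igkc and Jchain. It rose from 1.71 to 31.3 CP10K from Ighm-led to Igha-led cells in wild-type mouse 2 and from 5.09 to 70.2 in wild-type mouse 3 (log2 difference 3.96). In the mice outside the fit it went from 1.91 to 18.0 (wild-type mouse 1) and from 1.78 to 45.6 (SIRT7-/- mouse 1), the same direction in 4 of 4 mice. Pycard, an inflammasome adaptor, was called at 4.16, with 0.480 to 13.9 and 0.672 to 8.77 CP10K in the fitted mice and 3.77 to 6.95 and 4.47 to 14 in the others. Atp1b1, a sodium pump subunit, was called at 4.04 and was higher in Igha-led cells of all 4 mice. Klf2 (3.88), a transcription factor of lymphocyte trafficking, and Anxa2 (4.65) were also called. In wild-type mouse 1, however, Klf2 hardly moved, from 0.826 to 0.896 CP10K, and Anxa2 went from 0.369 down to 0.131. In SIRT7-/- mouse 1 they went from 0 to 2.71 and from 0.664 to 1.80 CP10K.

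Of 11 homing genes tested in the 2 mice, 2 were called higher (Itgb7 and Klf2) and 1 lower (Cxcr4) in Igha-led cells, where 0.609% of all genes were called. Their median log2 difference was 0.84 against 0.22 over all genes. Itgb7, the β7 integrin subunit that pairs with Itga4 in the gut-homing integrin α4β7, was called at 2.82. It went from 0.0926 to 1.88 and from 0.279 to 1.17 CP10K in the fitted mice, and from 0 to 1.22 and 0 to 0.867 in the others. Cxcr4, the receptor for the bone marrow chemokine CXCL12, was called lower in Igha-led cells at -3.07, with 0.912 to 0, 0.981 to 0.231, 1.84 to 0.266 and 0.876 to 0.267 CP10K in wild-type mice 2, 3 and 1 and SIRT7-/- mouse 1. Ccr10, a receptor known from IgA plasma cells, went from 0 to 0.510 and from 0 to 0.881 CP10K in wild-type mice 2 and 3 but was not called (adjusted p = 0.106, limma). Of the 12 homing genes measured in wild-type mouse 3, 1 was at least 4-fold higher in Igha-led cells, Ccr10, and 0 lower, near the 7.78% of all genes, with a median log2 difference of 0.92 against 0.17 over all genes.

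Of 15 genes of the plasma cell programme 2 were called higher (Tnfrsf17 and Cd28), of 20 secretion genes 0, and of 9 B cell genes 1 higher (H2-Aa) and 1 lower (Ms4a1), again beside 0.609% of all genes. Tnfrsf17 was called at 1.77 and was higher in Igha-led cells of all 4 mice, with 0 to 1.54 CP10K in wild-type mouse 1 and 0 to 3.21 in SIRT7-/- mouse 1. Past 4-fold in wild-type mouse 3 were 1 of 15 programme genes, 0 of 20 secretion genes, 0 of 11 B cell genes, 1 of 6 class switch genes (Bach2), 1 of 8 immunoglobulin receptor genes (Fcgr2b) and 0 of 2 survival and switch factors, beside 7.78% of all genes. Igkv9-120 and Igkv14-126, κ variable genes, were called lower in Igha-led cells at -5.20 and -4.32, with 0 UMIs of either in the Igha-led cells of both fitted mice. In wild-type mouse 1 both genes were at 0 in Ighm-led and Igha-led cells. In SIRT7-/- mouse 1 Igkv9-120 went the other way, from 0 to 0.667 CP10K, and Igkv14-126 was at 0 in both. Scand1 (-2.81) and Ms4a1 (-2.69) were called lower as well, but Ms4a1 went from 0 to 0.0704 CP10K in SIRT7-/- mouse 1. Of the called genes other than Jchain and those of the immunoglobulin loci, the 31 higher in Igha-led cells kept that sign in 20 (wild-type mouse 1) and 29 (SIRT7-/- mouse 1), and the 9 lower ones in 8 and 5. Over all genes, counted the same way, the share keeping the sign was 40.3% and 68.8% for those higher and 34.4% and 21.9% for those lower. A gene without UMIs in both kinds of cell counts here as not keeping the sign. In wild-type mouse 1 the median log2 difference over all genes was 0 for those higher and for those lower. In SIRT7-/- mouse 1 these medians were 1.30 and 1.31, so genes there tended to be higher in Igha-led cells whichever way they went in the fit. The shares are thus a low baseline in wild-type mouse 1. In SIRT7-/- mouse 1 the baseline leans toward higher in Igha-led cells, which also bears on the single genes named above.

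Among the listed genes, Igkc was called slightly lower in Igha-led cells (-0.32), from 4658 to 3766 and from 3921 to 3096 CP10K in the fitted mice. It was lower in the others too, from 3889 to 2954 and from 3582 to 3151. Jchain, which helped to choose the cells, is given as a description. It went from 430 to 537 and from 413 to 520 CP10K in the fitted mice, from 249 to 650 in wild-type mouse 1 and from 416 to 407 in SIRT7-/- mouse 1. Relative to RNA outside the immunoglobulin genes, median Jchain was higher in Igha-led cells of all 4 mice, at 893 and 1739 UMIs per 10000 such UMIs in wild-type mouse 1 and at 811 and 846 in SIRT7-/- mouse 1.

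**Figure D4:**
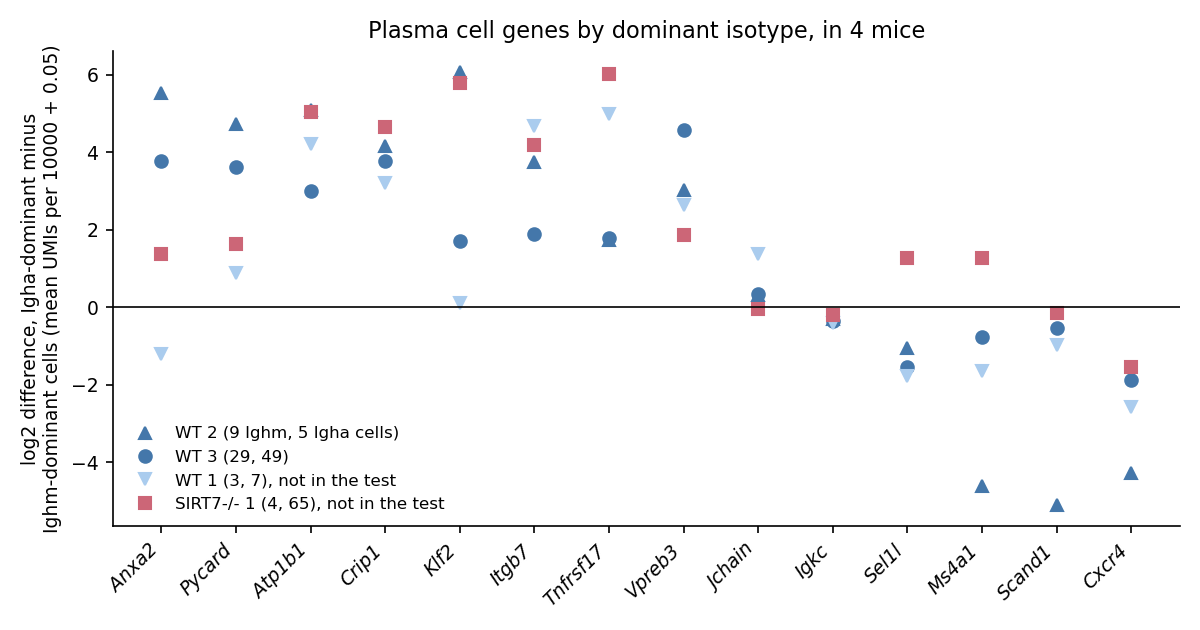
Log2 difference between Igha-led and Ighm-led plasma cells of the same mouse (mean UMIs per 10000 plus 0.05), for genes called in the fit on wild-type mice 2 and 3, with 2 further mice that the fit did not use. Points are mice, with the number of Ighm-led and Igha-led cells in the legend. Crip1, Pycard, Atp1b1, Itgb7, Tnfrsf17 and Vpreb3 lie above 0 in all 4 mice and Cxcr4 below 0. Vpreb3 and Sel1l are outside the rule for named genes and were chosen after their values were seen.

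The plasma-like cells fell into 2 clusters that were built without immunoglobulin genes, with 168 and 149 of the plasma cells by the rule. IgG cells were unevenly placed between them. They made up 0%, 0% and 10.9% of the plasma cells of the first cluster in wild-type mice and 11.5%, 8.33% and 25% in SIRT7-/- mice. In the second cluster these shares were 25%, 44.4% and 26.7% and 37.9%, 12.5% and 33.3%, higher in 6 of 6 mice. Some of these shares rest on very few cells. IgG cells were 0 of 6 and 1 of 4 in wild-type mouse 1, and 2 of 8 and 2 of 6 in SIRT7-/- mouse 3. All 3 Ighe-led cells also lay in the second cluster. Ighm-led cells were 13.1% and 12.8% of the clusters. This split was noticed after the values were seen and was not tested.

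B cells carried the isotypes of cells that have not switched. The B-like clusters held 101 cells outside the rule, with 25, 13 and 12 in wild-type and 41, 9 and 1 in SIRT7-/- mice. Cd79a had a UMI in 92.1% of them and Ebf1 in 78.2%, while Jchain had one in 2.97%. Igkc was found in 94.1% of the cells, Ighm in 86.1%, Ighd in 43.6%, Igha in 5.94%, Ighg3 in 3.96%, Ighg1 in 2.97% and Ighg2b in 1.98%, at a median of 1261 UMIs per cell. Ighg2c and Ighe were in 0 of 101 cells, which allows a mean of up to 0.201 CP10K at 3 UMIs over these cells. Igha in macrophage-like cells, which do not make it, was in 4.77% of cells at a median of 2267 UMIs. Depth differed between these classes, and the source of the Igha UMIs in B-like cells was not tested.

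In B-like cells Ighm stood at 20.8, 33.5 and 18.1 CP10K in wild-type and at 12.6 CP10K in SIRT7-/- mouse 1, the only mouse of that genotype with at least 10 such cells. In the 9 and 1 cells of SIRT7-/- mice 2 and 3 it was 20.2 and 15.4 CP10K. Ighd, made with Ighm in mature naive B cells, stood at 8.13, 11.9 and 9.61 CP10K against 2.74 CP10K (7.36 and 0 in mice 2 and 3), and Igkc at 77.7, 95.1 and 62.6 against 47.4 CP10K (51.8 and 149). With 3 wild-type mice and this 1 mouse, the log2 differences were -0.88 (SE 0.48) for Ighm, -1.81 (SE 0.28) for Ighd and -0.70 (SE 0.31) for Igkc, with adjusted p of 0.850, 0.132 and 0.763 in limma. SIRT7-/- mouse 1 lay below all wild-type mice for the 3 genes, as it did for 11.1% of all genes. That fit called 715 of 8498 genes (8.41%), but 662 of the 669 higher ones had 0 UMIs in every wild-type mouse, and 0 were called without wild-type mouse 2 or without wild-type mouse 3 in limma (1405 and 1613 at an unadjusted p under 0.05). Its lone SIRT7-/- mouse is assumed to vary like the wild-type mice.

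Outside plasma, B-like and pDC-like cells, 10844 cells remained, and immunoglobulin RNA in them was scattered and thin. Only 46 of them had at least 10 Igkc UMIs, and these 46 held 81.1% of the Igkc, 66.5% of the Igha, 65.8% of the Jchain and 95.4% of the Ighg1 UMIs of this set, but only 17.8% of the Ighm. They included 13 T-like cells, 10 of cluster 2, 7 of cluster 1 and 6 macrophage-like cells. In the other 10798 cells Igkc had a UMI in 13.3%, Ighm in 7.66%, Igha in 4.0%, Jchain in 2.74%, Ighd in 0.732% and Ighg1 in 0.50%. By mouse, Igkc was in 3.34%, 19.8% and 18.9% of these cells in wild-type and in 13.8%, 13.1% and 11.2% in SIRT7-/- mice. A limma fit of the means over all 10844 cells called 2 of 10967 genes (0.0182%), with 616 at an unadjusted p under 0.05. These were BC018473, higher at 4.56, and Pcyt2, an enzyme of phospholipid synthesis, lower at -4.64.

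Of the 5 listed genes that could be tested there, 0 were called. The log2 differences were 0.30 (SE 0.63) for Ighm, -0.74 (SE 1.07) for Igha, -0.57 (SE 1.30) for Igkc, -0.97 (SE 0.99) for Jchain and -1.80 (SE 1.14) for Ighg1, with adjusted p between 0.906 and 0.965. Igha changed sign, to 0.87, once the 46 cells were left out. Over all genes 8.98% did not overlap between the genotypes.

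The Ighm part of the heavy chain mix of these cells did not follow that of the plasma cells of the same mouse. With the 46 cells left out, Ighm made up 69.4%, 58.5% and 73.6% of their heavy chain UMIs in wild-type and 43.5%, 64.7% and 66.1% in SIRT7-/- mice. In SIRT7-/- mice 2 and 3 the plasma cells held only 0.589% and 0.248% Ighm. Igha made up 23.6%, 23.8% and 11.0% against 48.2%, 27.2% and 26.1%, and in SIRT7-/- mouse 1 1 cell with 267 Jchain UMIs but fewer than 10 of Igkc held 270 of the 534 Igha UMIs. These sums are small, between 72 and 1108 heavy chain UMIs per mouse.

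The shares of cells with a UMI varied between cell classes. Ighm had one in 1.09% of cells of cluster 1, 3.0% of hepatocyte-like, 4.62% of endothelial-like, 6.06% of macrophage-like, 9.77% of NK-like, 9.80% of neutrophil-like and 10.5% of T-like cells. Igkc lay between 8.75% and 18.4% over the same classes and stellate-like cells, and Igha between 2.19% and 5.26%. Cluster 2 was left unnamed. By fold it was led by the basophil proteases Prss34 and Mcpt8, but none of the 5 basophil markers reached 10% of its cells, and dendritic cell genes such as Cd209a and Xcr1 followed. It had Ighm in 21.5% of its 1349 cells, from 14.4 to 40.0% by mouse. It held 12.5% of the cells but 33.2% of the Ighm UMIs, against 11.6% of the Igkc UMIs. Among cells with at least 1000 UMIs, each thinned to 1000, Ighm was still in 10.5% of those of cluster 2. This share was 6.50% of T-like, 2.69% of macrophage-like and 1.69% of hepatocyte-like cells. Cells below 1000 UMIs are not in these shares.

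The pDC-like cells are named from markers of plasmacytoid dendritic cells, and 198 lay outside the rule (6, 5 and 17 in wild-type, 115, 54 and 1 in SIRT7-/- mice). Jchain was thin in them, with summed UMIs of 0, 0 and 1 in wild-type against 5, 17 and 0 in SIRT7-/- mice. Ighm had a UMI in 63.1% of them, between the shares of cluster 2 and of B-like cells. Among those with at least 1000 UMIs, each thinned to 1000, it had one in 45.8%. Its level was 6.93, 9.93 and 5.07 CP10K in wild-type and 7.93, 7.88 and 9.40 CP10K in SIRT7-/- mice, and the SIRT7-/- values lay within the wild-type range. No Ighg or Ighe UMI was found in them. The λ gene Iglc3 had a UMI in 69.2% of the pDC-like cells at 8.82 CP10K, against 44.6% and 5.76 CP10K in B-like cells. Igkc was the reverse, with 39.9% against 94.1%. Of 238 Igha UMIs in the pDC-like cells of SIRT7-/- mouse 2, 234 came from 1 cell.

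**Figure D5:**
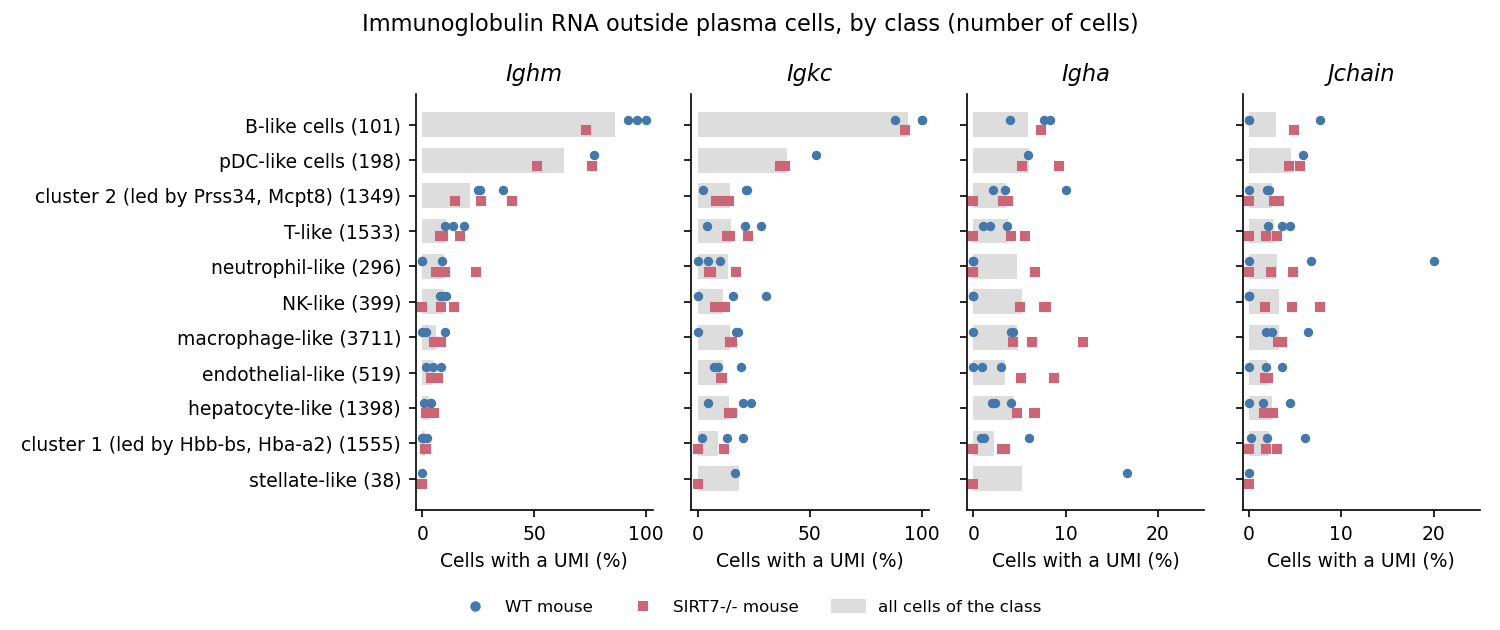
Percentage of cells with at least 1 UMI of Ighm, Igkc, Igha or Jchain, by class, outside the plasma cells. Bars are all cells of a class, and points are mice with at least 10 of its cells (circles wild-type, squares SIRT7-/-). Ighm rises from 1.09% in cluster 1 to 21.5% in cluster 2, 63.1% in pDC-like and 86.1% in B-like cells, while the bars for Igha stay at 6.06% or less.

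Receptors for immunoglobulin were also counted in the cells elsewhere. Of the 8 tested, 0 were called, where 0.0182% of all genes were, with a median log2 difference of 0.96 against 0.09 over all genes. Pigr, which carries polymeric IgA into bile, had means of 1.77, 2.75 and 0.746 CP10K in wild-type and 0.389, 0.194 and 0.762 CP10K in SIRT7-/- mice (log2 difference -1.85, SE 0.57, adjusted p = 0.717, limma). Fcgr1, an activating IgG receptor of macrophages, had 0.0520, 0.109 and 0.326 against 0.708, 0.758 and 0.483 CP10K (log2 difference 1.91, SE 0.47, adjusted p = 0.552, limma). The cell mix differed between these mice, with macrophage markers at 9.10, 8.64 and 42.4 CP10K elsewhere in wild-type and 107, 60.5 and 33.4 CP10K in SIRT7-/- mice. Hepatocyte markers stood at 379, 367 and 88.7 against 142, 85.1 and 215 CP10K, and the order of the mice by these was close to that by Pigr. The part of the cell mix was not tested.

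Across 78 profiles, each the mean of a cluster in a mouse with at least 10 cells, the genes outside the immunoglobulin loci most like Ighm in level were Pou2af1 (Pearson r = 0.87), Cd79a (0.86) and Mzb1 (0.85). For Igha these were Jchain (0.89), Tnfrsf17 (0.86) and Mzb1 (0.85), for Igkc Jchain (0.93), Mzb1 (0.92) and Pou2af1 (0.85), and for Jchain Mzb1 (0.90), Eaf2 (0.82) and Pou2af1 (0.81). Ighm thus stood nearest to a B lineage coactivator and a subunit of the B cell receptor, and Igha to Jchain and Tnfrsf17. The lists overlap, since Mzb1 came next for both at the same r of 0.85. Pou2af1 was also among the nearest genes of Igkc and Jchain. Profiles of the same mouse share a library, so these values are a description without a p.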

How the data were processed

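Livers of 3 wild-type and 3 SIRT7-/- mice, 1 library each, were measured by single-cell RNA sequencing. The authors aligned reads to the mouse genome (mm10) with Cell Ranger 6.0.0, dropped cells under 500 genes and those above 5% mitochondrial genes, scaled each cell to 10000 counts and deposited 1 table of natural log values after adding 1. Undoing the natural log gave CP10K. UMIs were worked back as multiples of the smallest step of each cell, and all 12961041 values above 0 came out whole within 0.02. Cells were mapped to mice by the ending of their barcode, 0 columns were left out, and the table holds no comparison of the authors. The members and gene lists were chosen with earlier results of these data known.

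In Python 3.11.15 (scanpy 1.11.5, leidenalg 0.10.2, pandas 2.3.3, scipy 1.17.1, numpy 2.4.6), cells were clustered without immunoglobulin genes and Jchain (1000 variable genes, 50 principal components, 3 neighbors per mouse, resolution 1, then 0.3 within clusters) and named from fixed markers. Doublets were left in. Scrublet, run through scanpy, marked 46 of 11610 cells (0.396%), a share taken as too low to rely on, and a removal before deposit is not named. Means of CP10K per mouse with at least 10 cells of a class, plus 0.05, were put on a log2 scale. Genes averaging 0.05 CP10K or more were compared, SIRT7-/- minus wild-type, two-sided, with limma 3.58.1 (R 4.3.3, statmod 1.5.0, trend and robust, Benjamini-Hochberg over all genes, threshold 0.05). Shares were compared by exact permutation tests over mice. The limma script was tested on simulated data. Intervals are exact binomial at 95%, and floors are 3 UMIs. Whether the libraries were made on separate days is not given, so p-values cover the spread between these mice.

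Named were the listed genes, the other genes of the cell rule, the λ constant genes, the 3 genes most like each of 4 listed genes, up to 5 called genes per direction and fit averaging 0.5 CP10K or more without overlap, and up to 4 genes of each list. Genes called in B-like cells are not named, since they rest on 1 SIRT7-/- mouse. Sequences and coordinates come from GRCm38 with the GENCODE M21 annotation. Alternatives were other pseudocounts, filters, scalings, means, cell and mouse choices, voom and a replicate block. A B cell marker used in the label check is not reported here.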

Additional observations from a re-analysis of the deposited data

How the results depend on the processing

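The Igha and Ighm shares of plasma cells kept their direction and did not overlap between the genotypes under all 14 alternatives each. Settings that only left out mice or added a replicate block reuse the same shares, so they could not have overlapped or changed direction. Only the settings that changed the cells or the measure could have done so. Leaving out a mouse gave differences of 24.5 to 39.8 points for Igha and -38 to -25.5 for Ighm. The difference of the Ighg share changed sign with summed UMIs (-2.65), with mice of at least 20 plasma cells (-4.25) and between -3.88 and 5.00 without a mouse, below 0 without wild-type mouse 1 (-1.09) or SIRT7-/- mouse 3. That of the plasma cell share ran from -2.47 to 1.61 without a mouse, above 0 only without wild-type mouse 3.

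Counts of called genes moved with the setting. The 4 calls in plasma cells became 1 at a pseudocount of 0.01, at a mean of at least 0.2 CP10K or without cells with a pDC marker UMI, 13 at a pseudocount of 0.5, 12 with no filter, 42 with the mean of log values or scaled over genes outside the immunoglobulin loci, and 0 of limma's tests with mice of at least 20 cells, in all plasma cells (210 at an unadjusted p under 0.05) or plasma-like clusters (236). They ran from 0 to 34 without a mouse, at 1 without wild-type mouse 1, 0 without wild-type mouse 2 (195 unadjusted), 34, 9 and 33 without SIRT7-/- mouse 1, 2 or 3. The 715 calls in B-like cells became 6 at a mean of at least 0.2, 9 with mice of at least 5 cells, 0 with log values or voom (929 and 404 unadjusted), and ran from 0 to 1646 without a mouse, the latter without wild-type mouse 1. The 2 calls elsewhere became 0 at a pseudocount of 0.5, with log values or voom (576, 487 and 721 unadjusted), 49 with the mean of class means, and 0 to 7 without a mouse, 7 without wild-type mouse 3, 1 without SIRT7-/- mouse 2 or 3 and 0 without any other. The 591 genes past 4-fold between isotypes became 8 at a pseudocount of 0.5, 130 at a mean of at least 0.2, 2148 scaled over the other genes and 356 with 2 mice. The causes were not tested.

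Of the listed genes, Igha, Igkc and Ighm kept their direction in plasma cells throughout. Reversed were Ighg1 in plasma-like clusters (2.97), Ighg2c (-0.17) and Ighg3 (-2.98, or -3.29 in plasma-like clusters) with mice of at least 20 cells, and Ighe, at -3.08 to 2.46 without a mouse (above 0 without wild-type mouse 3 or SIRT7-/- mouse 1 or 3). In B-like cells Igha was -1.32 with mice of at least 5 cells. Elsewhere Igha was 0.049 with log values, 2.05 with class means and 0.87 without cells with 10 or more Igkc UMIs, Igkc 0.60 and Jchain 0.023 with class means. Without a mouse, Ighm ran from -0.28 to 0.87 there (below 0 without wild-type mouse 1) and Igkc from -2.0 to 0.65 (above 0 without wild-type mouse 3 or SIRT7-/- mouse 3). Ighg3 was called in B-like cells without wild-type mouse 1 (2.78).

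The replicate numbers come from the sample titles, which name no pairing between genotypes. Deviations of same-numbered plasma cell means correlated at 0.104, -0.207 and -0.158 and those elsewhere at -0.301, -0.482 and -0.719. Differently numbered pairs ran from -0.104 to 0.272 and from -0.602 to 0.681. These values cannot show whether same-numbered mice were prepared together. A replicate block gave 8 calls in plasma cells, Ighg2b (adjusted p = 0.0377, limma) and Ighg3 among them, 0 elsewhere (297 unadjusted), and an exact p of 0.25, its smallest, for the Igha and Ighm shares. In B-like cells the block, at least 20 cells and a fit without SIRT7-/- mouse 1 could not be run, nor could voom or leaving out a mouse between isotypes. Removal of marked doublets was not run.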

Other observations

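Some single cells carried more than 1 heavy chain gene. In 5 of the 342 plasma cells the next gene reached at least 20% of the heavy chain UMIs. A cell of wild-type mouse 3 held 1052 Ighg2b and 336 Ighg2c UMIs, and a cell of SIRT7-/- mouse 2 held 357 and 169. The other 3 cells, all of SIRT7-/- mouse 2, were led by Igha, with 92 Igha and 24 Ighg1 UMIs, 553 and 162, and 679 Igha with 417 Ighg2c UMIs. Whether these were doublets was not tested.

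A cell of SIRT7-/- mouse 2 that clustered with macrophage-like cells held 341 Ighg1, 352 λ and 2 Igkc UMIs. The Ighe-led λ cell of wild-type mouse 3 held 497 Ighe, 1446 λ and 1 Igkc UMIs. Among the 125 plasma-like cells outside the rule, Igha led in 65, Ighm in 33, Ighg genes in 15 and Ighd in 2, and 10 had no leading gene.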
